A study of Mus musculus with 2 samples.

Results

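Natural killer (NK) cells of a less mature transcript profile were described in livers carrying metastases of B16F10, a mouse melanoma line. The data came from droplet single-cell RNA sequencing of live (DAPI-) CD45+ single cells, with 1 library from Vsig4 KO (Vsig4-/-) mice and 1 library from WT mice. All livers of both genotypes bore the melanoma metastases, so no tumour-free liver enters the comparison. CD45 is a surface marker of leukocytes. The number of mice behind a library, their age and their sex are not in the labels, nor is the part of each liver that was tumour. A cell barcode was taken as a less mature NK cell when it passed the filters of at least 200 genes, at least 500 unique molecular identifiers (UMIs) and at most 10% mitochondrial UMIs, and met 5 conditions on summed UMIs. These were at least 1 UMI of Ncr1, Klrb1c and Klre1, at least 1 UMI of Eomes, Klra8 and Klra4, none of Cd3d, Cd3e and Cd3g, none of Cd79a, and none of Klrg1, Zeb2 and Itgam. The cells were thus chosen by their own counts of these 13 genes, which are a description and support nothing below. The rule gave 269 less mature NK cells among 12618 barcodes, 94 of 5746 in the Vsig4 KO library and 175 of 6872 in the WT library. The same rule with at least 1 UMI of Klrg1, Zeb2 and Itgam gave 218 Vsig4 KO and 317 WT cells, called mature NK cells here.

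NK cells are innate lymphocytes that kill stressed, infected or transformed cells with perforin and granzymes and secrete interferon-gamma and chemokines. In the mouse they mature from CD27+ CD11b- cells, which carry TCF-1 and respond to cytokines, to CD11b+ KLRG1+ cells, which gain cytotoxic granules and the egress receptor S1PR5 under T-bet and ZEB2, and Eomes separates them from the resident type 1 innate lymphoid cells (ILC1) of the liver. Vsig4 encodes a complement receptor of the immunoglobulin superfamily that resident macrophages carry, Kupffer cells of the liver among them, and that can inhibit T cells.

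Counts in the text are UMIs summed over the gated cells of a library, scaled to counts per 1000000 UMIs of those cells (CPM). A ratio between libraries is Vsig4 KO over WT, and a ratio between classes is less mature over mature. Intervals in parentheses are 95% intervals of counting error alone. With 1 library per genotype they carry no variation between mice, so genotypes were compared without a test. Intervals of gene ratios take each summed UMI as an independent draw, so they also leave out variation between cells. The Vsig4 KO cells summed to 332251 UMIs, with a median of 3167 per cell, and the WT cells to 574616 UMIs, with a median of 2895. Of the barcodes of the libraries, 54 occurred in both, among them those of 3 WT and 0 Vsig4 KO less mature NK cells. Vsig4 had 3 UMIs in 3 kept Vsig4 KO barcodes and 43 UMIs in 19 kept WT barcodes. It had no UMI in less mature NK cells of either library, which, with 3 cells as the limit that a count of 0 allows, leaves room for a share of cells with a UMI of up to 3.19% in Vsig4 KO and 1.71% in WT.

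The label was checked on genes that the rule did not use. Of the markers fixed for these cells, Ctla2a and Car2 were outside the rule, and at least 1 of them was found in 90.4% (82.6 to 95.5) of Vsig4 KO and 90.3% (84.9 to 94.2) of WT less mature NK cells. In mature NK cells the share was 74.8% (68.5 to 80.4) in Vsig4 KO and 79.2% (74.3 to 83.5) in WT. Ctla2a alone had a UMI in 1.86% of Vsig4 KO and 1.79% of WT B cells, whose median depths were 2801 and 2410 UMIs; B cells should lack the gene. After thinning every cell to 1000 UMIs, Ctla2a was found in 58.7% of Vsig4 KO and 52.6% of WT less mature cells, and in 38.6% and 47.9% of mature cells. In Vsig4 KO the intervals of the classes lay apart (47.9 to 68.9 and 32.1 to 45.5). In WT they overlapped (44.9 to 60.2 and 42.3 to 53.6). Car2 was found after thinning in 20.7% and 19.7% of less mature cells and in 15.8% and 18.2% of mature cells, so it separated the classes little. In WT neither gene thus set less mature cells clearly apart from mature NK cells at equal depth. An ILC1 gene (Itga1, Cxcr6 or Cd200r1) was found in 1 of 94 Vsig4 KO and 5 of 175 WT less mature cells.

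Markers of other cells were low in less mature NK cells but not all at 0. All 7 Kupffer cell genes and all 6 basophil and mast cell genes were at 0 in both libraries. The 7 neutrophil genes summed to 0 UMIs in Vsig4 KO and 3 in WT, and the 10 hepatocyte genes to 0 and 2. Melanoma genes summed to 2 UMIs in Vsig4 KO and 11 in WT. The T cell list was at 454 CPM in Vsig4 KO and 628 CPM in WT, mostly from the receptor constant chains Trbc1 and Trbc2, which NK cells also transcribe, while Cd4, Cd8b1, Trgc1 and Trgc2 were at 0 in both. The B and plasma cell list was at 286 CPM in Vsig4 KO and 322 CPM in WT, with Iglc2 at 0 in both. The monocyte and macrophage list, which holds Ccr2 and Ly6c2 that NK cells carry, was at 680.2 CPM in Vsig4 KO and 722 CPM in WT, with Cd14 and Fcgr1 at 0 in both. The dendritic cell list, which holds Irf8 and Bst2 that NK cells carry, was at 1041 CPM in Vsig4 KO and 994 CPM in WT, with Xcr1 and Clec9a at 0 in both, and the type 2 innate lymphoid cell list at 51.2 CPM in Vsig4 KO and 48.7 CPM in WT.

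Of the genes that chose the cells, Ncr1, the activating receptor NKp46, was at 403 CPM in Vsig4 KO and 312 CPM in WT, Klrb1c (NK1.1) at 506 CPM in Vsig4 KO and 425 CPM in WT and Klre1 at 746 CPM in Vsig4 KO and 661 CPM in WT. Eomes, the transcription factor of conventional NK cells, was at 451 CPM in Vsig4 KO and 379 CPM in WT. Many cells sat close to the limits of the rule. Exactly 1 UMI of Klrg1, Zeb2 and Itgam kept 63 Vsig4 KO and 112 WT cells just outside, out of the 218 and 317 called mature. Among the less mature cells, 9 of 94 in Vsig4 KO and 17 of 175 in WT passed with exactly 1 UMI of Ncr1, Klrb1c and Klre1, and 9 and 29 with exactly 1 UMI of Eomes, Klra8 and Klra4. A further 62 Vsig4 KO and 57 WT barcodes met every other condition but had no UMI of Eomes, Klra8 and Klra4.

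In the Vsig4 KO library, fewer of the kept barcodes were less mature NK cells. They made up 1.64% (1.32 to 1.998) of kept Vsig4 KO barcodes and 2.55% (2.19 to 2.95) of kept WT barcodes, a ratio of 0.642 (0.495 to 0.830). Mature NK cells made up 3.79% (3.31 to 4.32) in Vsig4 KO and 4.61% (4.13 to 5.14) in WT, a ratio of 0.822 (0.689 to 0.980). Within the gated NK cells the less mature share was 30.1% (25.1 to 35.6) in Vsig4 KO and 35.6% (31.3 to 40.0) in WT, with a ratio of 0.847 (0.652 to 1.09), an interval that spans 1.

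Depth moves cells across the rule, since a cell with fewer UMIs more often has none of Klrg1, Zeb2 and Itgam. With every barcode thinned to 1000 UMIs and 346 Vsig4 KO and 462 WT shallower barcodes left out, less mature NK cells were 2.46% (2.07 to 2.91) of Vsig4 KO and 3.14% (2.72 to 3.59) of WT barcodes, a ratio of 0.785 (0.626 to 0.983). Their share of the gated NK cells was then 59.9% (53.1 to 66.4) in Vsig4 KO and 59.8% (54.4 to 65.1) in WT. Of the mature cells that still met the other conditions after thinning, 36.3% in Vsig4 KO and 37.7% in WT fell into the less mature gate. These were 49 and 77 cells, among the 133 Vsig4 KO and 201 WT cells of the thinned less mature gate. Values given below with thinned gates thus come from another mix of cells. The smaller share among all leukocytes thus kept its direction at equal depth, while the composition within NK cells was not distinguishable between the libraries. Shares in a CD45+ sort depend on every other leukocyte, and B cells were 37.5% of kept barcodes in Vsig4 KO against 30.1% in WT, whose part in the ratio was not tested.

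**Figure D1:**
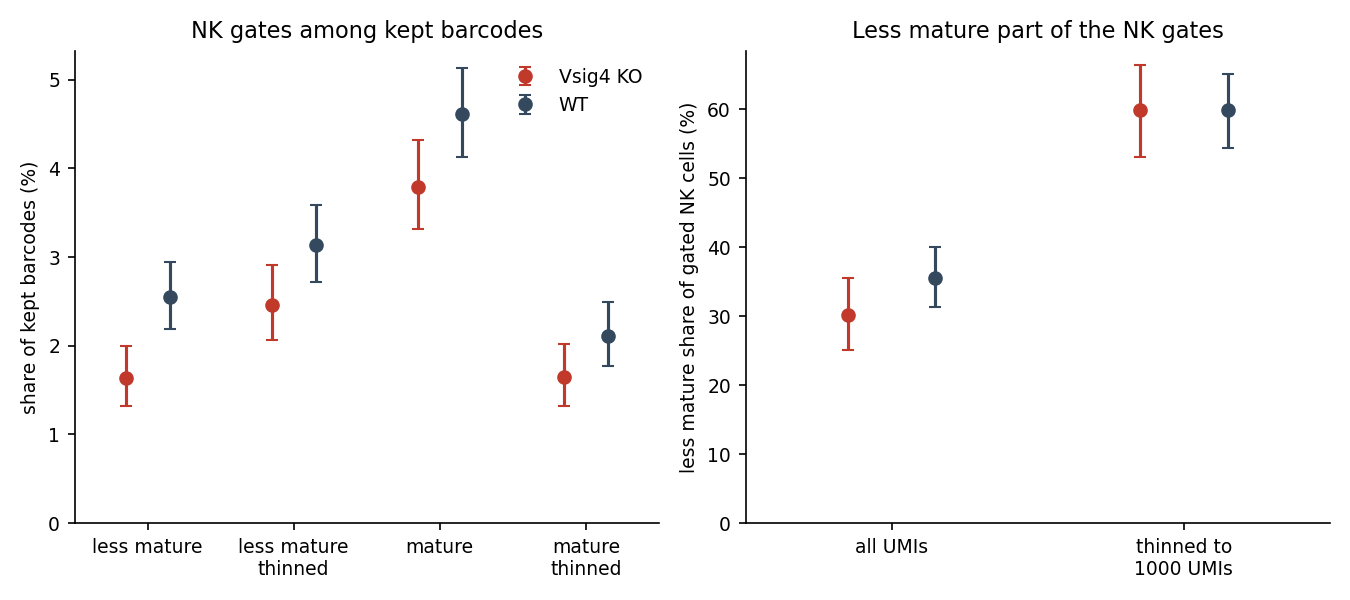
Shares of gated NK cells in the Vsig4 KO and WT libraries, in percent of kept barcodes (left) and of gated NK cells (right), with exact 95% intervals of counting error, before and after thinning to 1000 UMIs. Less mature NK cells were 1.64% in Vsig4 KO and 2.55% in WT before thinning, and the less mature share of NK cells was 59.9% and 59.8% after it.

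Set against mature NK cells of the same library, the less mature cells had more transcript of most immature NK genes. Of 14 measured genes of the immature NK list that the rule did not use, 11 were higher in both libraries and 1 was lower in both, against 27.7% of all 3836 genes measured being higher in both and 32.1% lower in both. The list's median log2 ratio was 0.56 in Vsig4 KO and 0.36 in WT, against -0.01 and -0.02 over all genes. Because the cells were divided by maturation genes, these ratios describe the classes and test nothing.

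Emb encodes the cell adhesion glycoprotein embigin and lies at chr13:117208536-117274415 on the plus strand (mm10, GENCODE M21, protein-coding). It was at 939 CPM in less mature and 352 CPM in mature Vsig4 KO cells and at 856 and 483 CPM in those of WT, ratios of 2.66 (2.27 to 3.14) in Vsig4 KO and 1.77 (1.57 to 2.001) in WT. Cd7, a surface receptor of lymphocytes, was at 789 CPM in less mature and 376 CPM in mature Vsig4 KO cells and at 842 and 454 CPM in those of WT. Its ratios were 2.096 (1.77 to 2.48) in Vsig4 KO and 1.86 (1.64 to 2.102) in WT. Ltb, the membrane lymphotoxin subunit, was at 132 CPM in less mature and 45.4 CPM in mature Vsig4 KO cells and at 164 and 85.1 CPM in those of WT, with ratios of 2.92 (1.85 to 4.63) in Vsig4 KO and 1.92 (1.44 to 2.57) in WT. These 3 genes were higher in the less mature cells of both libraries with intervals above 1. Xcl1, the chemokine that attracts cross-presenting dendritic cells, was at 831 CPM in less mature and 458 CPM in mature Vsig4 KO cells and at 654 and 379.8 CPM in those of WT, with ratios of 1.82 (1.55 to 2.13) in Vsig4 KO and 1.72 (1.498 to 1.98) in WT, although with gates on counts thinned to 1000 UMIs its WT ratio was 0.818. Tcf7, which encodes TCF-1, was at 193 CPM in less mature and 125 CPM in mature Vsig4 KO cells and at 265 and 179 CPM in those of WT, with ratios of 1.54 (1.11 to 2.12) in Vsig4 KO and 1.47 (1.19 to 1.82) in WT. Ctla2a, a cysteine protease inhibitor gene at chr13:60934155-60936625 on the minus strand, had ratios of 1.71 (1.49 to 1.97) in Vsig4 KO and 1.31 (1.18 to 1.46) in WT, its relative Ctla2b 1.497 (1.07 to 2.08) in Vsig4 KO and 1.69 (1.28 to 2.22) in WT and the carbonic anhydrase Car2 1.34 (1.05 to 1.72) in Vsig4 KO and 1.27 (1.04 to 1.57) in WT. Cd27, the costimulatory receptor that names the immature stage, was at 120.4 CPM in less mature and 46.6 CPM in mature Vsig4 KO cells and at 99.2 and 83.4 CPM in those of WT. Its ratio was 2.58 (1.62 to 4.12) in Vsig4 KO and 1.19 (0.843 to 1.66) in WT, where the interval spans 1. Bcl2, Lef1 and Thy1 had ratios between 0.867 and 1.13 in both libraries.

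Few genes lay past 2-fold. In both libraries 6 of 3836 genes (0.156%) were at least 2-fold higher and 18 (0.469%) at least 2-fold lower in less mature cells. Ier5l, a relative of the immediate early gene Ier5, was at 184 CPM in less mature and 59.7 CPM in mature Vsig4 KO cells and at 132 and 60.6 CPM in those of WT, with ratios of 3.07 (2.08 to 4.56) in Vsig4 KO and 2.18 (1.56 to 3.05) in WT. Plxnc1, a semaphorin receptor, was at 307 CPM in less mature and 109.9 CPM in mature Vsig4 KO cells and at 229.7 and 110.3 CPM in those of WT, with ratios of 2.79 (2.09 to 3.74) in Vsig4 KO and 2.08 (1.62 to 2.67) in WT. Sult2b1, a sterol sulfotransferase, had ratios of 2.08 (1.38 to 3.11) in Vsig4 KO and 2.302 (1.68 to 3.16) in WT, and Dgat1, which makes triglyceride, 2.05 (1.51 to 2.76) in Vsig4 KO and 1.98 (1.58 to 2.48) in WT. Rora, a nuclear receptor of innate lymphoid cells, had 2.400 (1.52 to 3.79) in Vsig4 KO and 1.57 (0.983 to 2.49) in WT.

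Transcripts of late maturation were lower. Of 19 measured genes of the mature NK list, 16 were lower in both libraries and 0 were higher in both, with median log2 ratios of -0.62 in Vsig4 KO and -0.53 in WT. Over all 3836 genes 32.1% were lower in both and 27.7% higher in both. The cells were divided by maturation genes, so these ratios too describe the classes and test nothing. S1pr5, the egress receptor, was at 51.2 CPM in less mature and 147 CPM in mature Vsig4 KO cells and at 31.3 and 91.8 CPM in those of WT, with ratios of 0.348 (0.197 to 0.581) in Vsig4 KO and 0.341 (0.195 to 0.565) in WT. Cma1, a chymase of mature NK cells, was at 93.3 CPM in less mature and 252 CPM in mature Vsig4 KO cells and at 80.1 and 152 CPM in those of WT, with ratios of 0.3702 (0.245 to 0.541) in Vsig4 KO and 0.525 (0.371 to 0.729) in WT. Prf1, which encodes perforin, was at 430.4 CPM in less mature and 836 CPM in mature Vsig4 KO cells and at 348 and 543 CPM in those of WT, with ratios of 0.515 (0.427 to 0.617) in Vsig4 KO and 0.641 (0.544 to 0.752) in WT, and Gzma, granzyme A, at 5989 CPM in less mature and 9205 CPM in mature Vsig4 KO cells and at 4831 and 6911 CPM in those of WT, with ratios of 0.651 (0.619 to 0.684) in Vsig4 KO and 0.699 (0.669 to 0.7298) in WT. Gzmb, granzyme B, had ratios of 0.568 (0.473 to 0.678) in Vsig4 KO and 0.762 (0.644 to 0.899) in WT, and S100a6, a calcium-binding protein, 0.4795 (0.389 to 0.587) in Vsig4 KO and 0.527 (0.4499 to 0.615) in WT. Ly6c2 had 0.493 (0.377 to 0.637) in Vsig4 KO and 0.312 (0.244 to 0.394) in WT, and Klra9, an inhibitory Ly49 receptor, 0.495 (0.361 to 0.666) in Vsig4 KO and 0.559 (0.428 to 0.722) in WT. Tbx21, which encodes T-bet, had 0.726 (0.563 to 0.927) in Vsig4 KO and 0.959 (0.758 to 1.21) in WT, so its WT interval spans 1, and Irf8 had 0.908 (0.797 to 1.03) in Vsig4 KO and 1.06 (0.951 to 1.19) in WT. Cx3cr1, the fractalkine receptor of the most mature cells, had only 2 UMIs in Vsig4 KO and 1 in WT less mature cells.

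Cells with exactly 1 UMI of Klrg1, Zeb2 and Itgam, which are part of the mature class, lay between the classes for some genes. In them Prf1 was at 629 CPM in Vsig4 KO and 485 CPM in WT, and Ctla2a at 828 and 924 CPM. Emb was at 479 and 738 CPM and S1pr5 at 87.1 and 50.6 CPM. For these genes the values just outside the limit thus fell between those of the less mature and of all mature cells in each library.

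**Figure D2:**
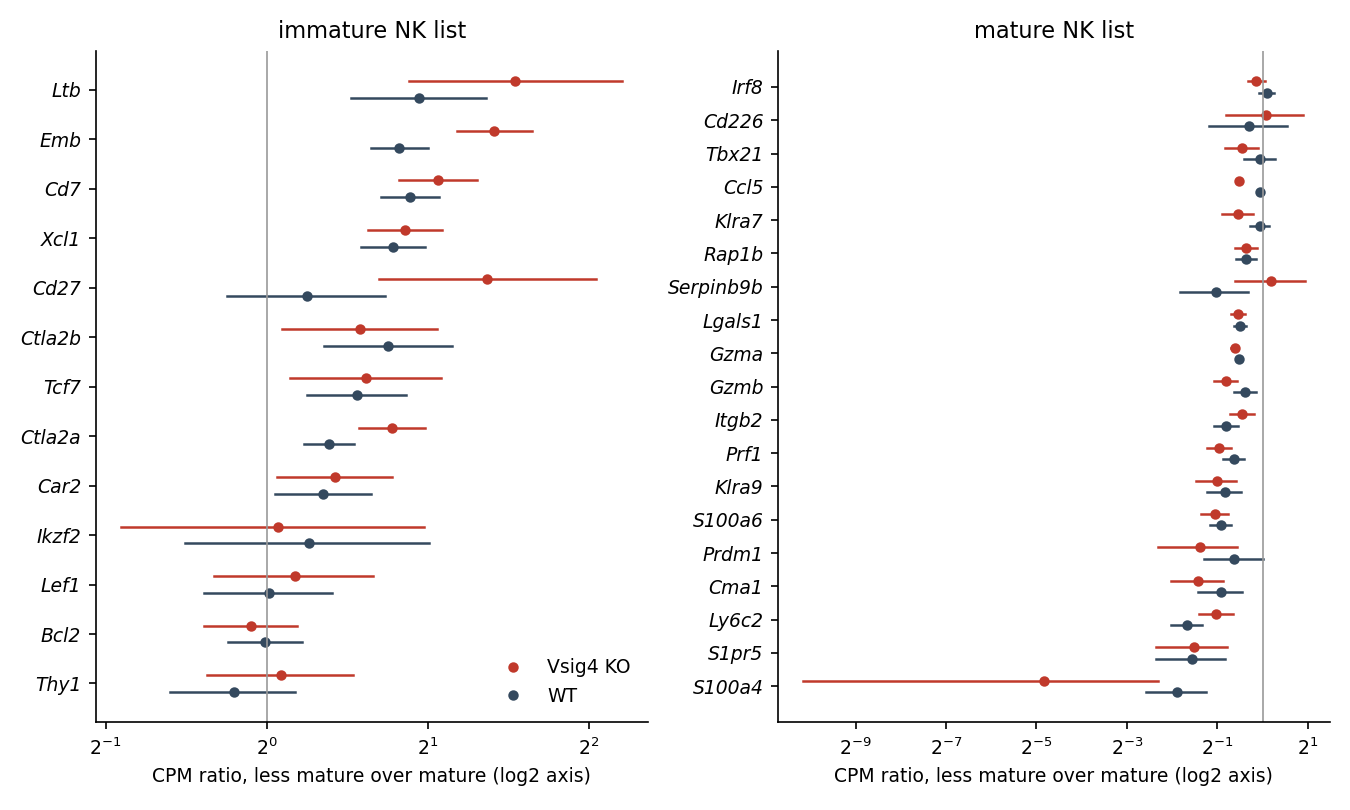
CPM ratio of less mature over mature NK cells on a log2 axis for measured genes of the immature NK list (left) and the mature NK list (right), in the Vsig4 KO and WT libraries, with exact 95% intervals of counting error as lines. On the left 11 of the 13 genes drawn lie above 1 in both libraries, and on the right 16 of 19 lie below 1 in both.

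The lowest ratios of all belonged to myeloid and antigen-presentation genes. Cd74, the MHC class II invariant chain, was at 93.3 CPM in less mature and 995 CPM in mature Vsig4 KO cells and at 115 and 1635 CPM in those of WT. Lyz2, a lysozyme of monocytes and macrophages, was at 18.1 CPM in less mature and 418 CPM in mature Vsig4 KO cells and at 60.9 and 852 CPM in those of WT. H2-Aa, H2-Ab1, H2-Eb1, Il1b and Ifitm3 also had ratios of 0.136 or less in both libraries. The shares of cells with a UMI lay closer for some. H2-Aa was found in 6.38% of less mature and 5.50% of mature Vsig4 KO cells, and in 9.14% and 11.0% of those of WT. For Ifitm3 the shares were 4.26% and 3.67% in Vsig4 KO and 1.14% and 7.89% in WT. The rule placed any gated barcode with a UMI of Zeb2 or Itgam in the mature class, whatever its other RNA. With thinned gates the direction turned, to 2.37 in Vsig4 KO and 1.60 in WT for Cd74 and to 1.23 in Vsig4 KO and 4.26 in WT for Lyz2. At least 5 UMIs of the monocyte and macrophage list, which holds the NK cell genes Ly6c2 and Ccr2, were found in 16 of 94 Vsig4 KO and 18 of 175 WT less mature cells, against 49 of 218 and 77 of 317 mature cells. The part of myeloid RNA in these ratios was not tested.

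The less mature cells were not uniform. A late maturation gene (S1pr5, Cx3cr1 or Cma1) was found in 31.9% (22.7 to 42.3) of Vsig4 KO and 24.0% (17.9 to 31.0) of WT less mature cells, against 61.9% (55.1 to 68.4) and 48.6% (43.0 to 54.2) of mature cells. Gzma was found in all 94 Vsig4 KO cells, with 1 to 61 UMIs per cell and a median of 19, and in 165 of 175 WT cells, with a highest count of 80 and a median of 14. Prf1 was found after thinning in 43.5% (33.2 to 54.2) of Vsig4 KO and 29.5% (22.8 to 36.9) of WT less mature cells. Xcl1 had a median of 1 UMI per cell in both libraries and a highest count of 40 in Vsig4 KO and 30 in WT, so single cells held many times the median. A cycling gene (Mki67 or Top2a) was found in 5 of 94 Vsig4 KO and 15 of 175 WT less mature cells.

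Between the genotypes, the immature genes themselves differed little. Of 15 measured members of the immature NK list, 9 were higher and 6 lower in Vsig4 KO less mature cells, 0 were at least 1.5-fold higher and 1 was at least 1.5-fold lower, and the median log2 ratio was 0.04. Ctla2a was at 999 CPM in Vsig4 KO and 994 CPM in WT, a ratio of 1.01 (0.876 to 1.15). Car2 was at 310.0 CPM in Vsig4 KO and 266 CPM in WT, a ratio of 1.16 (0.898 to 1.504), Emb had a ratio of 1.097 (0.949 to 1.27) and Cd7 of 0.936 (0.802 to 1.09). Tcf7 was at 193 CPM in Vsig4 KO and 265 CPM in WT, a ratio of 0.728 (0.535 to 0.981), and Cxcr3, a chemokine receptor of tissue entry, had 0.576 (0.282 to 1.103) on 13 and 39 UMIs. The mature NK list had 10 of 14 measured members higher and 4 lower, 1 past 1.5-fold each way, with a median log2 ratio of 0.28. Under the alternatives run the median of the mature NK list lay between -0.41 and 0.33, so its direction was not stable. The background was wide: among 3102 genes with at least 50 UMIs, 5.83% were at least 1.5-fold higher and 6.35% at least 1.5-fold lower, 12.2% in all, with a median log2 ratio of 0.00 and 50.6% of ratios above 1. One alternative left out barcodes with a UMI of another lineage's gene (Trac, Trbc1, Trbc2, Trdc, Cd8a, Cd4, Ms4a1, Ighm, Lyz2 or C1qa). It counts Trbc1 and Trbc2, which NK cells transcribe, and kept 25 Vsig4 KO and 31 WT cells. Only 376 genes then had at least 50 UMIs. Main turns of direction in it are given below as values without lineage gene barcodes. They are given without intervals, and a gene outside the 376 rests on fewer than 50 UMIs. Among the immature genes Cxcr3 turned, to 5.21.

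Among genes with at least 100 UMIs, the highest ratios outside the histone genes were those of Cep85, a centrosomal protein, and Dusp2, described with its group below. Cep85 was at 506 CPM in Vsig4 KO and 207 CPM in WT, a ratio of 2.44 (1.92 to 3.11). Sytl3, a synaptotagmin-like protein of vesicle traffic, was at 506 CPM in Vsig4 KO and 265 CPM in WT, a ratio of 1.91 (1.53 to 2.396), and Rasal3, which dampens Ras signalling in lymphocytes, had 2.03 (1.34 to 3.08). The Sytl3 ratio ranged from 1.01 to 1.93 under the alternatives run. Cmss1 was the most abundant of the genes past the fold, at 25631 CPM in Vsig4 KO and 15967 CPM in WT, a ratio of 1.61 (1.56 to 1.65), with 1.23 in mature NK cells; it was named after its values were seen. The lowest ratios apart from haemoglobin were those of Plac8, at 75.2 CPM in Vsig4 KO and 176 CPM in WT, a ratio of 0.428 (0.265 to 0.669), Atxn1 with 0.4499 (0.295 to 0.668), or 1.22 without lineage gene barcodes, and Rhob, a small GTPase, with 0.467 (0.316 to 0.676). Tox, a transcription factor that NK cell development needs, was at 96.3 CPM in Vsig4 KO and 195 CPM in WT, a ratio of 0.494 (0.323 to 0.738), and was found in 23 of 94 Vsig4 KO and 62 of 175 WT cells. Znrf3, a ubiquitin ligase that removes Wnt receptors, had a ratio of 0.502 (0.336 to 0.733).

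**Figure D3:**
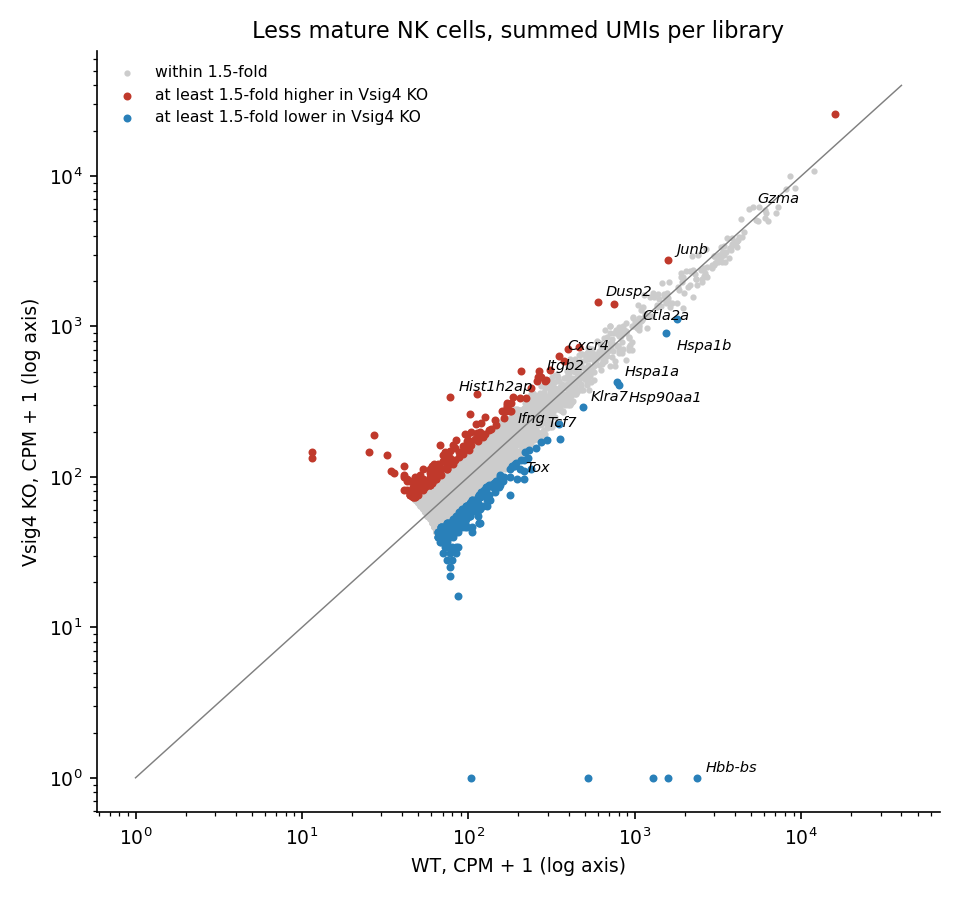
Summed expression in less mature NK cells of the Vsig4 KO library (vertical axis) and the WT library (horizontal axis), as CPM + 1 on log axes, for 3102 genes with at least 50 UMIs; coloured points are at least 1.5-fold apart. Dusp2, Junb and Cxcr4 lie above the diagonal, Hspa1a, Hspa1b, Hsp90aa1, Klra7 and Tox below it, and 4 haemoglobin genes and Ly6d at 0 in Vsig4 KO.

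Early response and activation genes were mostly higher in Vsig4 KO less mature cells. Of 22 measured members, 20 were higher and 2 lower, 7 were at least 1.5-fold higher and 1 at least 1.5-fold lower, with a median log2 ratio of 0.42 against 0.00 over all genes. Of all genes, 5.83% were at least 1.5-fold higher and 6.35% at least 1.5-fold lower. Dusp2, at chr2:127336159-127338376 on the plus strand, encodes a nuclear phosphatase that is induced by activation and switches off MAP kinases. It was at 1448 CPM in Vsig4 KO and 597 CPM in WT, a ratio of 2.43 (2.11 to 2.79). It was found in 68.5% (58.0 to 77.8) of Vsig4 KO and 42.8% (35.3 to 50.5) of WT cells at equal depth, with a median of 4 and 1 UMIs per cell before thinning. Junb, an AP-1 subunit, was at 2763 CPM in Vsig4 KO and 1589 CPM in WT, a ratio of 1.74 (1.58 to 1.91), and Fosb, another, had 1.91 (1.11 to 3.31). Nfkbiz, a nuclear regulator of NF-kappaB targets, had a ratio of 1.68 (1.25 to 2.25), although 26.3% of its Vsig4 KO UMIs came from 1 cell. Btg2, an antiproliferative gene, was at 728 CPM in Vsig4 KO and 461 CPM in WT, a ratio of 1.58 (1.32 to 1.89), Fos had 1.56 (1.16 to 2.09) and the phosphatase Dusp5 1.55 (1.27 to 1.89). The nuclear receptors Nr4a1, Nr4a2 and Nr4a3 had ratios of 1.304, 1.34 and 1.48. Jun went the other way, at 542 CPM in Vsig4 KO and 762 CPM in WT, a ratio of 0.711 (0.594 to 0.847), and Myc, with 19 and 53 UMIs, had 0.6200 (0.347 to 1.06).

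These ratios were not seen in less mature NK cells alone. Dusp2 had a ratio of 2.36 in mature NK cells, 1.78 in T cells and 1.38 in B cells, and Junb 1.94, 1.403 and 1.21 in the same order. Fos had 0.953 in mature NK cells, and the difference between the classes was not tested. The direction of Fos and Myc turned when the gates were set on counts thinned to 1000 UMIs, to 0.927 and 1.21, and that of Jun without lineage gene barcodes, to 1.18. Each genotype is 1 library, so library and genotype cannot be told apart.

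Heat shock genes were mostly lower in Vsig4 KO less mature cells. Of 12 measured members 9 were lower and 3 higher, 6 were at least 1.5-fold lower and 0 at least 1.5-fold higher, with a median log2 ratio of -0.57. Over all genes 6.35% were at least 1.5-fold lower and 5.83% at least 1.5-fold higher. Hspa1a and Hspa1b encode the same inducible HSP70 chaperone from neighbouring copies on chromosome 17, and reads may be divided between them. Hspa1a was at 424 CPM in Vsig4 KO and 776 CPM in WT, a ratio of 0.547 (0.449 to 0.662), and Hspa1b at 899.9 CPM in Vsig4 KO and 1535 CPM in WT, a ratio of 0.586 (0.512 to 0.669). Hspa1a UMIs came from 22 of 94 Vsig4 KO and 59 of 175 WT cells. Hsp90aa1, the inducible cytosolic HSP90, was at 406 CPM in Vsig4 KO and 797 CPM in WT, a ratio of 0.5098 (0.418 to 0.619). Hsph1, an HSP110 exchange factor, was at 175 CPM in Vsig4 KO and 294 CPM in WT, a ratio of 0.594 (0.433 to 0.804). Hspd1, the mitochondrial HSP60, was at 84.3 CPM in Vsig4 KO and 151 CPM in WT, a ratio of 0.557 (0.3499 to 0.861), and its partner Hspe1 had 0.738 (0.5698 to 0.948). Dnajb4, a co-chaperone, had 0.532 (0.254 to 1.04) on 12 and 39 UMIs. The constitutive Hspa8 and Hsp90ab1 had ratios of 0.929 and 1.03, and Hspa5, the chaperone of the endoplasmic reticulum, went the other way with 1.43 (1.15 to 1.77).

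The heat shock result depends on which cells are gated. Gates on counts thinned to 1000 UMIs took in 49 Vsig4 KO and 77 WT cells that the main gates call mature. With those gates the median log2 ratio of the list was -0.02. With cells of exactly 1 UMI of Klrg1, Zeb2 and Itgam let in, the median was -0.24. Hspd1 and Hspe1 had 1.07 and 1.09 with thinned gates and 1.17 and 1.34 without lineage gene barcodes, where Hspa5 had 0.955. Summed over its 14 genes, the list was at 6453 CPM in Vsig4 KO and 8164 CPM in WT in less mature cells and at 8240.2 CPM in Vsig4 KO and 8087 CPM in WT in mature NK cells. In mature NK cells Hspa1a had a ratio of 0.841 and Hsp90aa1 0.733. Hspa1a had 0.671 in T cells and 0.596 in B cells.

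Promoters of the heat shock list are shown because 9 of its 12 measured members were lower with the gates as set. As background, HSF1, a transcription factor of the heat shock response, binds repeats of a short element. RefSeq windows on GRCm38.p6 from 250 bases before to 50 bases after a gene's start were searched on both strands for GAANNTTCNNGAA, whose other strand reads TTCNNGAANNTTC, overlapping matches included. At least 1 match was found in 198 of 32851 windows (0.603%), and in 4 of the 17 windows of 11 heat shock genes with an entry, belonging to Hsph1, Hspd1 and Hspe1. Hspd1 and Hspe1 start on opposite strands of one stretch, and its 2 overlapping matches begin 144 bases before the Hspd1 start. The Hsph1 match begins 15 bases after the gene's start in the first of its windows. The 2 windows below lie at chr1:55087883-55088182 and chr5:149636266-149636565, both on the minus strand, with the matches in capitals. A match is a string in the sequence, no binding was measured, and nothing about HSF1 follows from it for these ratios.
Hspd1: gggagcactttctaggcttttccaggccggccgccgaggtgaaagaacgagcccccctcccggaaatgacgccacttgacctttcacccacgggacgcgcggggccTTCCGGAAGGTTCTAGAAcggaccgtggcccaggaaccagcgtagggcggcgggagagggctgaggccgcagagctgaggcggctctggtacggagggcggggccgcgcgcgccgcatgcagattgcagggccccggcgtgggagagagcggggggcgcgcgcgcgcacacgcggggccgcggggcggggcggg
Hsph1: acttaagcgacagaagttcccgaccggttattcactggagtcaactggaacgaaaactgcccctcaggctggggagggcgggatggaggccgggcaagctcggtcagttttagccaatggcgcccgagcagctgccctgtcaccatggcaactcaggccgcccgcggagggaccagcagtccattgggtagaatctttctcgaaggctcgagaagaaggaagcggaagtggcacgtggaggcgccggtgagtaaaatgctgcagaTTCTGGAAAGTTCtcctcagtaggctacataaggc

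The windows of the 2 HSP70 copies, at chr17:34972107-34972406 for Hspa1a and chr17:34959189-34959488 for Hspa1b on the minus strand, hold no match to this strict element. They are printed to show how alike the starts of the copies are. They differ at 4 of 300 positions, which are in capitals, and the transcripts themselves were not compared.
Hspa1a: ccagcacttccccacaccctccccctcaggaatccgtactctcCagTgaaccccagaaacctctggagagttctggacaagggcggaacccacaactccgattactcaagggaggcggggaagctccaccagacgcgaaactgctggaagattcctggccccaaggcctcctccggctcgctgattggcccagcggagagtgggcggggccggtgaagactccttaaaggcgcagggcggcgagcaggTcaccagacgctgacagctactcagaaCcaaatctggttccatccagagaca
Hspa1b: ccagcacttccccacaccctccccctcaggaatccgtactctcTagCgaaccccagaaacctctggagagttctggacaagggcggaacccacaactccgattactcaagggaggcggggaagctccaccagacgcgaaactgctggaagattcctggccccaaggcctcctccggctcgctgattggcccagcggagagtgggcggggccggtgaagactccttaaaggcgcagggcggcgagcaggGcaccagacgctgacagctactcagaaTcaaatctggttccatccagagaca

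Cytotoxic genes went both ways, and none passed 1.5-fold. Of 13 measured members 8 were higher and 5 lower in Vsig4 KO less mature cells, against 50.6% higher over all genes. The median log2 ratio was 0.25, and -0.0017 without lineage gene barcodes. Gzma was at 5989 CPM in Vsig4 KO and 4831 CPM in WT, a ratio of 1.24 (1.17 to 1.31), and Gzmb at 457 CPM in Vsig4 KO and 343 CPM in WT, a ratio of 1.33 (1.07 to 1.66). Prf1 was at 430.4 CPM in Vsig4 KO and 348 CPM in WT, a ratio of 1.24 (0.991 to 1.54), an interval that spans 1. Serpinb9, which protects the cell from its own granzyme B, was at 641 CPM in Vsig4 KO and 459 CPM in WT, a ratio of 1.395 (1.16 to 1.68), and Nkg7, a granule membrane protein, had 1.196 (1.09 to 1.31). In mature NK cells the ratios were 1.33 for Gzma, 1.79 for Gzmb and 1.54 for Prf1. Srgn, the proteoglycan core of the granules, had 0.996 (0.873 to 1.13). Without lineage gene barcodes Prf1 turned to 0.625, Serpinb9 to 0.665 and Nkg7 to 0.999.

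Of 8 measured cytokines and chemokines, 4 were higher and 4 lower, and 1 passed 1.5-fold, against 12.2% of all genes. Ifng, interferon-gamma, was at 292 CPM in Vsig4 KO and 171 CPM in WT, a ratio of 1.71 (1.28 to 2.29), found in 27 of 94 Vsig4 KO and 40 of 175 WT cells, with 21.6% of the Vsig4 KO UMIs in 1 cell. At equal depth it was found in 16.3% (9.42 to 25.5) of Vsig4 KO and 11.6% (7.21 to 17.3) of WT cells, whose intervals overlap. Xcl1 was at 831 CPM in Vsig4 KO and 654 CPM in WT, a ratio of 1.27 (1.08 to 1.49), and Tgfb1 had 1.401 (1.13 to 1.74). Ccl5 was the most abundant effector transcript, at 10772 CPM in Vsig4 KO and 11991 CPM in WT, a ratio of 0.898 (0.863 to 0.936), against 1.24 in mature NK cells. Ccl3 had a ratio of 0.744 (0.584 to 0.943) and Ccl4 of 1.01 (0.891 to 1.15), and 30.4% of the Vsig4 KO Ccl3 UMIs came from 1 cell. Ccl3 turned to 1.65 and Tgfb1 to 0.451 without lineage gene barcodes.

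Among receptors of cytokines and chemokines, 2 of 13 measured genes were at least 1.5-fold higher and 1 was at least 1.5-fold lower. Over all measured genes these shares were 5.83% and 6.35%. Cxcr4, the receptor of CXCL12 that holds NK cells in bone marrow, was at 635 CPM in Vsig4 KO and 348 CPM in WT, a ratio of 1.82 (1.497 to 2.23), with 1.53 in mature NK cells. Il2rg, the common gamma chain of the receptors of interleukin-2 and interleukin-15, was at 430.4 CPM in Vsig4 KO and 258 CPM in WT, a ratio of 1.67 (1.32 to 2.12). Its partner chain Il2rb had 1.19 (1.07 to 1.33), and Ifngr1, a chain of the interferon-gamma receptor, 1.33 (1.202 to 1.48). Il18r1 and Il12rb2, chains of the receptors of interleukin-18 and interleukin-12, had 1.03 and 0.965. Itgb2, the beta chain of LFA-1 and Mac-1, was at 464 CPM in Vsig4 KO and 261 CPM in WT, a ratio of 1.78 (1.41 to 2.24), with 1.39 in mature NK cells. Without lineage gene barcodes Itgb2 turned to 0.977, Il2rg to 0.996 and Il2rb to 0.974.

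NK receptors went both ways. Klrc1, which encodes inhibitory NKG2A, was at 457 CPM in Vsig4 KO and 273 CPM in WT, a ratio of 1.67 (1.33 to 2.11), and Tigit, an inhibitory receptor of nectin family ligands, at 274 CPM in Vsig4 KO and 158 CPM in WT, a ratio of 1.73 (1.28 to 2.34). Klra7, an inhibitory Ly49 receptor, was at 289 CPM in Vsig4 KO and 486 CPM in WT, a ratio of 0.595 (0.467 to 0.753), with 0.836 in mature NK cells; Ly49 genes are near copies, and reads may be divided between them. Klri2, a chain of the KLRI receptors, had 0.6399 (0.483 to 0.839), and Cd244a, which encodes 2B4, 0.641 (0.407 to 0.985). Klrk1, which encodes the activating NKG2D, was at 439 CPM in Vsig4 KO and 564 CPM in WT, a ratio of 0.779 (0.637 to 0.9504). The adaptors Tyrobp (DAP12) and Fcer1g, which carry activating signals, had ratios of 0.881 (0.8101 to 0.957) and 1.12 (1.02 to 1.24). Over 16 measured NK receptors and adaptors, 8 were higher and 8 lower, 2 past 1.5-fold each way, against 5.83% higher and 6.35% lower over all genes. Tigit turned to 0.347 and Fcer1g to 0.809 without lineage gene barcodes, and Cd244a to 1.11 with thinned gates. Of the checkpoint list Pdcd1 and Havcr2 had no UMI in less mature cells of either library.

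Transcription factors of the NK lineage were balanced, with 11 of 22 higher and 11 lower and a median log2 ratio of 0.01. Over all measured genes 50.6% were higher, 5.83% at least 1.5-fold higher and 6.35% at least 1.5-fold lower. Rora was at 120.4 CPM in Vsig4 KO and 60.9 CPM in WT, a ratio of 1.98 (1.22 to 3.205) on 40 and 35 UMIs, the only 1 of the 22 at least 1.5-fold higher, as Tox was the only 1 at least 1.5-fold lower. Tbx21 was at 256 CPM in Vsig4 KO and 191 CPM in WT, a ratio of 1.34 (0.995 to 1.79), and Klf2, which keeps lymphocytes quiescent and recirculating, at 589.9 CPM in Vsig4 KO and 755 CPM in WT, a ratio of 0.781 (0.656 to 0.927). Of 7 measured genes of the response to transforming growth factor beta, Smad7, its feedback inhibitor, was at 310.0 CPM in Vsig4 KO and 169 CPM in WT, a ratio of 1.84 (1.38 to 2.45), and Tgif1, a Smad corepressor, had 1.93 (1.26 to 2.96). The receptor chain Tgfbr2 and the transducer Smad3 had 0.856 and 0.953. In mature NK cells Smad7 and Tgif1 had ratios of 1.71 and 1.803. Rora turned to 0.893, Tbx21 to 0.797 and Tgif1 to 0.744 without lineage gene barcodes.

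Genes of energy metabolism were more often lower than higher in Vsig4 KO, with list medians close to 0. Of 33 measured oxidative phosphorylation genes 22 were lower and 11 higher, 2 of them at least 1.5-fold lower, with a median log2 ratio of -0.13. Over all genes 50.6% were higher and 6.35% at least 1.5-fold lower. Under the alternatives run the oxidative phosphorylation median stayed between -0.19 and -0.09. Uqcrh, a subunit of complex III, was at 593 CPM in Vsig4 KO and 881 CPM in WT, a ratio of 0.673 (0.568 to 0.795), and Uqcr11, another, had 0.607 (0.395 to 0.911). Ndufs5, of complex I, had 0.6195 (0.372 to 1.001). Of 12 glycolysis genes 4 were higher and 8 lower, with a median of -0.05, which ranged from -0.13 to 0.01 under the alternatives. Slc2a1, the glucose transporter GLUT1, had 14 UMIs in Vsig4 KO and 49 in WT, a ratio of 0.494 (0.252 to 0.9095), and Hif1a, the hypoxia factor, 0.561 (0.338 to 0.899). Of 13 interferon-gamma response genes 9 were higher and 0 passed 1.5-fold, with a median of 0.10. The MHC class I heavy chains H2-K1 and H2-D1 had ratios of 1.22 (1.13 to 1.32) and 1.23 (1.13 to 1.33), with H2-K1 at 0.949 without lineage gene barcodes. Of the 4 measured type I interferon genes 2 were higher and 2 lower, and Bst2, which encodes tetherin, had a ratio of 0.576 (0.329 to 0.9701) on 20 and 60 UMIs. Its direction turned without the highest scrublet doublet scores, to 1.27, and without lineage gene barcodes, to 1.46.

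A few values rested on single barcodes. Among genes with at least 100 UMIs, the highest ratio was that of the histone gene Hist1h2ap, at 337 CPM in Vsig4 KO and 76.6 CPM in WT, a ratio of 4.402 (3.08 to 6.39), with 75% of its Vsig4 KO UMIs in 1 cell. The linker histone genes H1f4 and H1f2 had 3.16 (2.31 to 4.36) and 2.59 (1.84 to 3.68), with 39.3% and 33.3% in 1 cell. Tuba1b, a tubulin, had 1.91 (1.36 to 2.69), with 41.3% in 1 cell. Mki67, a marker of cycling cells, had 46 UMIs in Vsig4 KO and 18 in WT, a ratio of 4.42 (2.51 to 8.099), with 91.3% of the Vsig4 KO UMIs from 1 cell. Top2a had 2.93 (1.71 to 5.14), and 0.148 without the deepest less mature barcode of each library. Pcna, a DNA replication clamp, had 0.535 (0.291 to 0.935), and of 8 measured cell cycle genes 4 were higher and 4 lower. Tuba1b turned to 0.852, Mki67 to 0.521 and Pcna to 2.08 without lineage gene barcodes. The deepest Vsig4 KO barcode held 17483 UMIs, 284 of them of the cell cycle list, and whether it is 1 cell was not tested. Conversely the haemoglobin genes Hba-a1, Hba-a2, Hbb-bs and Hbb-bt had no UMI in Vsig4 KO. Together with Alas2, an enzyme of haem synthesis, they held 3319 of the 7070 UMIs of 1 WT barcode. Against a floor of 3 UMIs over the group, Hbb-bs was at least 262-fold lower in Vsig4 KO cells, a value set by that 1 barcode. Ly6d, a lymphocyte surface antigen, likewise had no UMI in Vsig4 KO, and 94.9% of its WT UMIs came from 1 cell. Trbc1, a T cell receptor constant chain that NK cells transcribe without a rearranged receptor, was at 178 CPM in Vsig4 KO and 355 CPM in WT, a ratio of 0.5002 (0.368 to 0.671), whereas Trbc2 had 1.06 (0.735 to 1.52). These neighbouring genes are near copies, and reads may be divided between them.

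**Figure D4:**
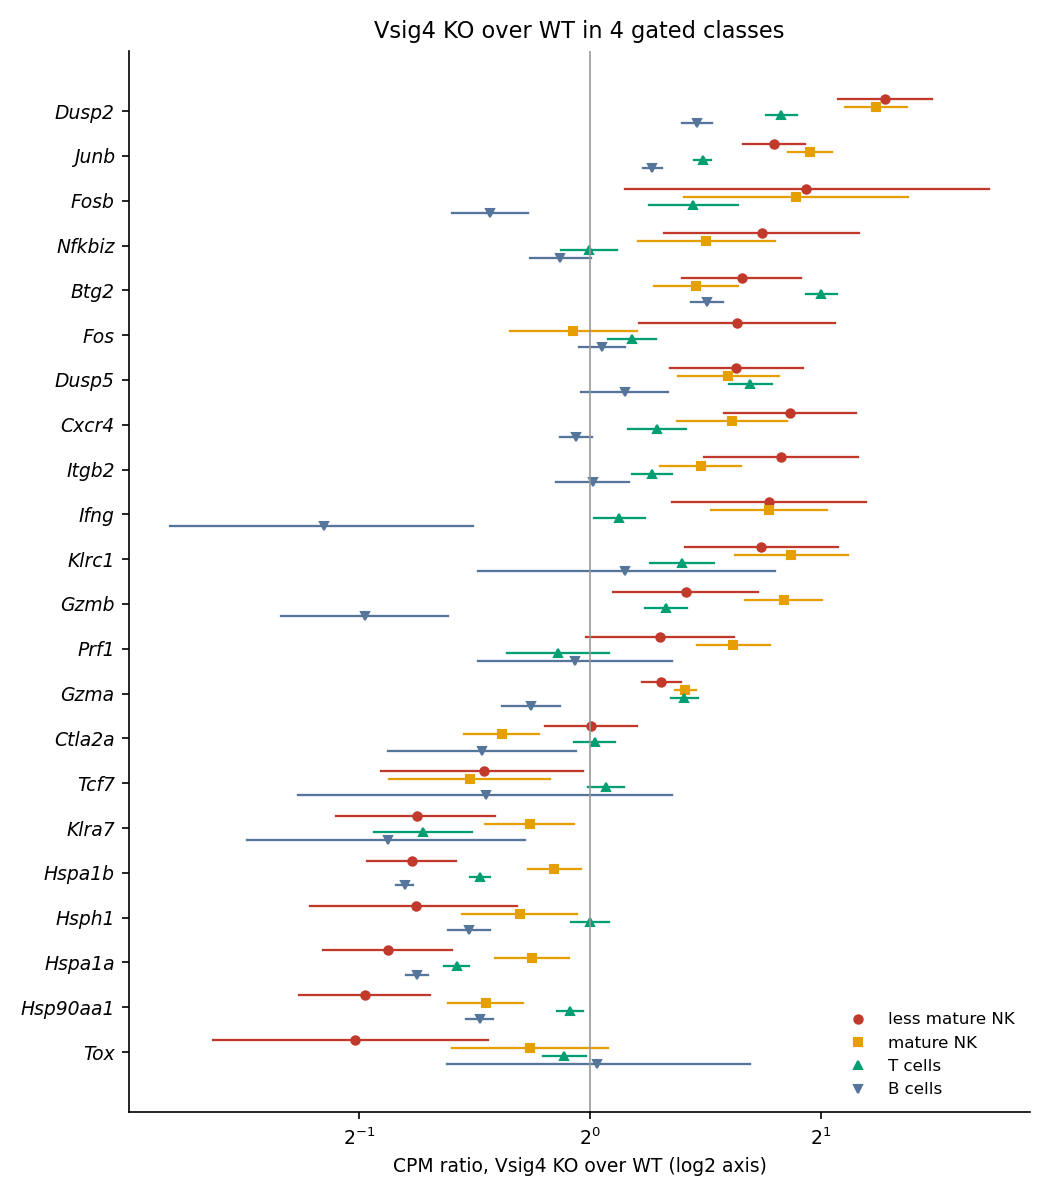
CPM ratio of Vsig4 KO over WT on a log2 axis in less mature NK cells, mature NK cells, T cells and B cells for 22 named genes, with exact 95% intervals of counting error as lines. Dusp2 and Junb lie above 1 in all 4 classes, Hspa1a, Hspa1b and Hsp90aa1 below 1 in all 4, and Ctla2a at 1.01 in less mature NK cells.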

How the data were processed

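Single-cell 5′ gene expression libraries were made with 10x Genomics chemistry, and the submitters' processing notes name Cell Ranger 7.1.0 and mm10. The authors deposited matrices of whole-number UMI counts, 1 per library, over 31253 genes and 5799 Vsig4 KO and 6929 WT barcodes. Gates were set on raw counts with Python 3.11.15 (numpy 2.4.6, scipy 1.17.1, pandas 2.3.3). UMIs of gated cells were summed per library and divided by the class total to give CPM. CPM had exact Poisson intervals, ratios exact conditional binomial intervals and shares Clopper-Pearson intervals, all at 95% and for counting error only. Genes counted between genotypes had at least 50 UMIs over both libraries, and between classes at least 50 UMIs over both classes in each library, with the 13 genes of the gates left out. A gene was counted as apart at 1.5-fold between libraries and at 2-fold in both libraries between classes. List medians are of log2((CPM + 10)/(CPM + 10)). Thinning drew 1000 UMIs per barcode without replacement, once. T cells had at least 2 UMIs of Cd3d, Cd3e and Cd3g and no Cd79a, and B cells Cd79a and no Cd3. Doublets stayed in: scrublet, as run by scanpy 1.11.5, marked 14 Vsig4 KO barcodes (0.244%) and 4 WT barcodes (0.058%), too few to serve as a doublet call, and removal of the highest scores was an alternative. A further gate for ILC1 held 32 Vsig4 KO and 27 WT cells and was not compared.

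Named genes were the 12 highest and 12 lowest ratios with at least 100 UMIs, list members past 1.5-fold with up to 6 others of most UMIs, and a short set chosen by name, with ribosomal, mitochondrial, predicted, receptor-segment and sex-linked genes left out of the ranking. The members, lists and genes were chosen with earlier results of these data known. A few list members counted in the totals are not reported here by name. Interval code was checked on simulated sums of independent Poisson counts. These sums hold no spread between cells, so they check the code and not how well the intervals suit these data. Promoter sequences are RefSeq's on GRCm38.p6.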

Additional observations from a re-analysis of the deposited data

Results flagged for a closer look

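Mki67, which marks cycling cells, had opposite directions in the NK classes: its ratio of Vsig4 KO over WT was 4.42 (2.51 to 8.10) in less mature NK cells and 0.6304 in mature NK cells. The difference was not tested, since each genotype is 1 library. In less mature cells 91.3% of the Vsig4 KO UMIs of Mki67 came from 1 barcode.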

How the results depend on the processing

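No paired analysis was possible because each genotype is 1 library. The share ratio of less mature NK cells kept its direction under every alternative run and moved past its interval only without barcodes holding another lineage's gene, to 0.964; that alternative counts Trbc1 and Trbc2, which NK cells transcribe, and left 25 Vsig4 KO and 31 WT cells. The ratio within gated NK cells stayed inside its interval throughout.

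Counts of genes followed the minimum of UMIs and the cells gated. Genes at least 1.5-fold higher and lower in Vsig4 KO numbered 181 and 197, and 2909 and 3592 with no minimum, 626 and 668 at 20 UMIs, 64 and 53 at 100 UMIs, and 28 and 30 without lineage gene barcodes. Genes at least 2-fold higher and lower in less mature cells numbered 6 and 18, and 326 and 1103 with no minimum, 16 and 85 at 20 UMIs, 3 and 11 at 100 UMIs, 0 and 1 without lineage gene barcodes, and 10 and 7 with gates on thinned counts. The higher genes numbered 3 without cycling barcodes, 3 with the mean of CPM per cell and 10 with 1 UMI of Klrg1, Zeb2 and Itgam allowed. The lower genes numbered 11 without the highest scrublet scores and 5 without barcodes of 5 or more myeloid and MHC class II UMIs, an alternative added after seeing the data that removes barcodes by genes among those called lower.

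With thinned gates the Vsig4 KO over WT ratio turned for Cd244a (1.11), Fos (0.927), Myc (1.21) and Hspd1 (1.07). Allowing 1 UMI of Klrg1, Zeb2 and Itgam turned Cd244a (1.003) and Myc (1.05). Bst2 turned without high scrublet scores (1.27) and without myeloid barcodes (1.30). Top2a turned without the deepest barcodes (0.148), also added after seeing the data. Without lineage gene barcodes Tuba1b (0.852), Atxn1 (1.22), Cxcr3 (5.21), Itgb2 (0.977), Il2rg (0.996), Tigit (0.347), Rora (0.893), Tgif1 (0.744), Hspd1 (1.17), Pcna (2.08), Mki67 (0.521) and Bst2 (1.46) turned. 

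The less mature over mature ratio turned mostly for myeloid and MHC class II genes. With thinned gates these were, in Vsig4 KO, H2-Ab1 (1.85), Lyz2 (1.23), Cd74 (2.37) and H2-Eb1 (1.58), and in WT H2-Ab1 (3.86), Lyz2 (4.26), H2-Aa (2.37), Il1b (2.06), Cd74 (1.60), Ifitm3 (4.78), H2-Eb1 (3.43), Atf3 (1.88) and Cst3 (1.99). Without high scrublet scores they were Lyz2 (1.18) and Ifitm3 (2.36) in Vsig4 KO. Without myeloid barcodes they were Lyz2 (1.02), H2-Aa (2.30), Ifitm3 (3.45) and H2-Eb1 (1.28) in Vsig4 KO and H2-Ab1 (1.19) and Lyz2 (1.05) in WT. Without lineage gene barcodes they were Dgat1 (0.943) in Vsig4 KO and Plxnc1 (0.749), H2-Aa (3.15), Il1b (1.57), Cd74 (1.89) and Ifitm3 (1.57) in WT. The cause was not tested.

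Another 2116 gene and setting combinations between genotypes stayed inside their main intervals, 111 of them across 1. A further 151 left their intervals, 97 in the same direction and 54 across 1, of which 30 were without lineage gene barcodes and 16 with thinned gates. The WT ratio of Xcl1 between classes crossed to 0.818 with thinned gates. A gene with 50 UMIs over both libraries carries a wide interval, and low receptors and factors such as Cx3cr1, Il7r and S1pr5 were at few UMIs at this depth.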
